A study of Mus musculus with 18 samples.

Results

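The genes described here are 8 transcription factor genes of the trophoblast, the lineage that forms the placenta: the X-linked homeobox genes Rhox6, Rhox9 and Esx1, the caudal homeobox gene Cdx2, the Ets gene Elf5, the AP-2 gene Tfap2c, the bHLH gene Ascl2 and the TEA-domain gene Tead4. They were taken from the deposited table by name, through their RefSeq accessions, and are 8 of the 23421 genes it holds. They have 11 of the 29851 transcripts in the table. The names were chosen by their FPKM in these same libraries, all 6 being in view, so the differences given here are descriptions and no test was run on them.

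The study concerns the Polycomb repressive complex 2 (PRC2), which methylates lysine 27 of histone H3 and needs its subunit Eed to do so. RNA was sequenced in 6 libraries, 1 per group, all from mouse lines of 129/Ola background. Wild-type and Eed knock-out (KO) cells of the embryonic stem (ES) cell line E36 were sampled as ES cells, in medium with 15% serum and leukemia inhibitory factor, and as embryoid bodies (EBs). EBs are aggregates that differentiate once that factor is withdrawn. They were formed in hanging drops of 1000 cells in 20 µl for 48 hours, received all-trans retinoic acid at 0.5 µM between days 2 and 5, and were cultured to day 9. Cells of the line E14, another ES line, carried a scrambled short hairpin (shCtrl) or one against Setd2 (shSetd2), delivered in a pLKO.1 lentivirus, and were harvested 4 days after puromycin selection. The labels do not give the Eed allele or say whether the KO line is 1 clone, so line and genotype cannot be told apart. The 12 chromatin immunoprecipitation samples of the series are not analysed here.

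Trophoblast and embryo proper separate at the blastocyst stage. In the outer cells, Tead4 with its co-activator Yap1 switches on Cdx2, and Cdx2, Elf5, Eomes and Tfap2c then hold trophoblast stem cells in their state. Ascl2, which is imprinted and expressed from the maternal allele, is needed for the spongiotrophoblast of the placenta. Esx1 is a placental homeobox gene whose loss impairs the labyrinth, and the Rhox genes form a cluster of homeobox genes on the X chromosome that are expressed in placenta and in the reproductive organs. ES cells keep several of these genes low through Polycomb marks or DNA methylation, and the methylated Elf5 promoter is a known barrier between ES cells and trophoblast.

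The promoters of these genes differ in CpG content, which the choice of genes did not use. RefSeq (build GRCm38.p6) gave the 250 bases before the start site for 4 of the 8 genes. They are shown because CpG-rich promoters are the usual sites of PRC2 and CpG-poor ones are often methylated. Each is written 5′ to 3′ on the gene's strand, with every CpG dinucleotide in capitals.
Esx1, chrX:137120327-137120576, minus strand: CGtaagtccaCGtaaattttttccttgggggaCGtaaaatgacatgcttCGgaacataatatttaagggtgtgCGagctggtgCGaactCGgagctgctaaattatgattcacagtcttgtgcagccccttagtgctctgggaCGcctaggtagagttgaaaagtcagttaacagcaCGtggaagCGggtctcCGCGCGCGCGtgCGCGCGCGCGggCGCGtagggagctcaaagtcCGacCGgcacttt
Cdx2, chr5:147307250-147307499, minus strand: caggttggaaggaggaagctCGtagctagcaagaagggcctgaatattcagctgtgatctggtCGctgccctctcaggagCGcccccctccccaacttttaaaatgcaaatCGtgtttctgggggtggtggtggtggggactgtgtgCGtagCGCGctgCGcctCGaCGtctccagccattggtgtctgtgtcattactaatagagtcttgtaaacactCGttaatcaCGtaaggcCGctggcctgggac
Ascl2, chr7:142969265-142969514, minus strand: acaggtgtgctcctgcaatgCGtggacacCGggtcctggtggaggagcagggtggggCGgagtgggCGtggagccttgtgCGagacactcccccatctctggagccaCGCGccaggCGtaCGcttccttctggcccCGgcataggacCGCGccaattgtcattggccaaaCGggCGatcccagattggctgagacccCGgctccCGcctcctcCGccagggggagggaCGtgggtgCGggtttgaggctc
Elf5, upstream start, chr2:103411848-103412097, plus strand: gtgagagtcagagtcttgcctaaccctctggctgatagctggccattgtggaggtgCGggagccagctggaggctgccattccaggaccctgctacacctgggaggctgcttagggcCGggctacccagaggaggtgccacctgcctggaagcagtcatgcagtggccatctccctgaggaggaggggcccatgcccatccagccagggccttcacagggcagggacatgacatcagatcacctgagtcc
Elf5, downstream start, chr2:103423818-103424067, plus strand: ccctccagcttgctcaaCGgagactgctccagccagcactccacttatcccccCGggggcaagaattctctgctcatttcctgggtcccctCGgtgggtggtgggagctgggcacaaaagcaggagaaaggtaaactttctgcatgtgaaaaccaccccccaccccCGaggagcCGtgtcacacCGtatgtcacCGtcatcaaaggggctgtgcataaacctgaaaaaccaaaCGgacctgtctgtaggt
The Esx1 window held 24 CpG, the Ascl2 window 19 and the Cdx2 window 13, against 2 and 8 in the upstream and downstream Elf5 windows. As a ratio of observed to expected CpG, Esx1 had 1.34, above 99.9% of the 32851 promoter windows of the same length. Many of its CpG lie in a broken run of alternating C and G in the part nearest the start site. Cdx2 and Ascl2 had ratios of 0.690 and 0.671, between the median of all windows (0.373) and their upper quartile (0.723). The upstream Elf5 window had 0.0814, higher than only 12.3% of windows, and the downstream one had 0.402.

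On both strands of these windows 5 motifs were searched, with any overlap allowed. The TEAD motif CATTCC occurred in the upstream Elf5 window and in 12.6% of all windows. The Cdx2 window held the octamer ATGCAAAT, which 1.60% of all windows hold, and the AP-2 motif GCCNNNGGC, which 13.7% hold. The caudal motif TTTATGG (2.43% of all windows) and the Ets motif ACCGGAAGT (0.804%) were in none of the 5 windows. These are matches of letters only.

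The unit is FPKM, the number of fragments divided by transcript length and by the mapped fragments of the library, so levels can be compared between genes. Where a gene has several transcripts, the one with the highest mean over the 6 libraries is used. Differences are of log2(FPKM + 1), a scale that shrinks those of low genes, and the size rule calls a gene higher or lower where the difference is at least 1. A gene counted as expressed if any E36 library reached an FPKM of 1, or either of the 2 libraries compared where E14 was involved. With 1 library per group there is no replicate error. As a yardstick, shCtrl was set against ES wild type, that is E14 control cells against E36 cells. There the size rule called 3.14% of genes higher and 5.65% lower (400 and 720 genes, or 507 and 536 with upper-quartile rescaling), and 0 of the 7 genes described here that were expressed.

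Eed mRNA does not check the KO labels. Wild-type and KO-labelled ES cells had 72.3 and 77.8 FPKM of it, and the EBs 25.04 and 21.8 in the same order. Directions given for Eed KO therefore rest on the labels. Setd2 had 16.8 in shCtrl and 2.59 in shSetd2. From low-count genes, depth was estimated at between 16400000 and 23800000 fragments per library, with EB Eed KO at the lower end. Of 12 pluripotency genes, all 12 had an FPKM of at least 1 in each ES library, with Pou5f1 among them.

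In ES cells, 5 of the 7 expressed genes were higher where Eed KO is the label and none was lower. They were the X-linked homeobox genes Rhox6, Rhox9 and Esx1, with the largest differences, and Tfap2c and Tead4. Over all 14772 expressed genes the rule called 2.82% higher and 3.01% lower. These values chose the genes, so nothing is read from that contrast of shares. Against shCtrl, 4 were higher and 0 lower, where 5.47% of all genes were higher and 3.86% lower. In EBs, Rhox6 and Rhox9 lay the other way, lower in Eed KO, while Esx1 and Tead4 were again higher.

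**Figure D1:**
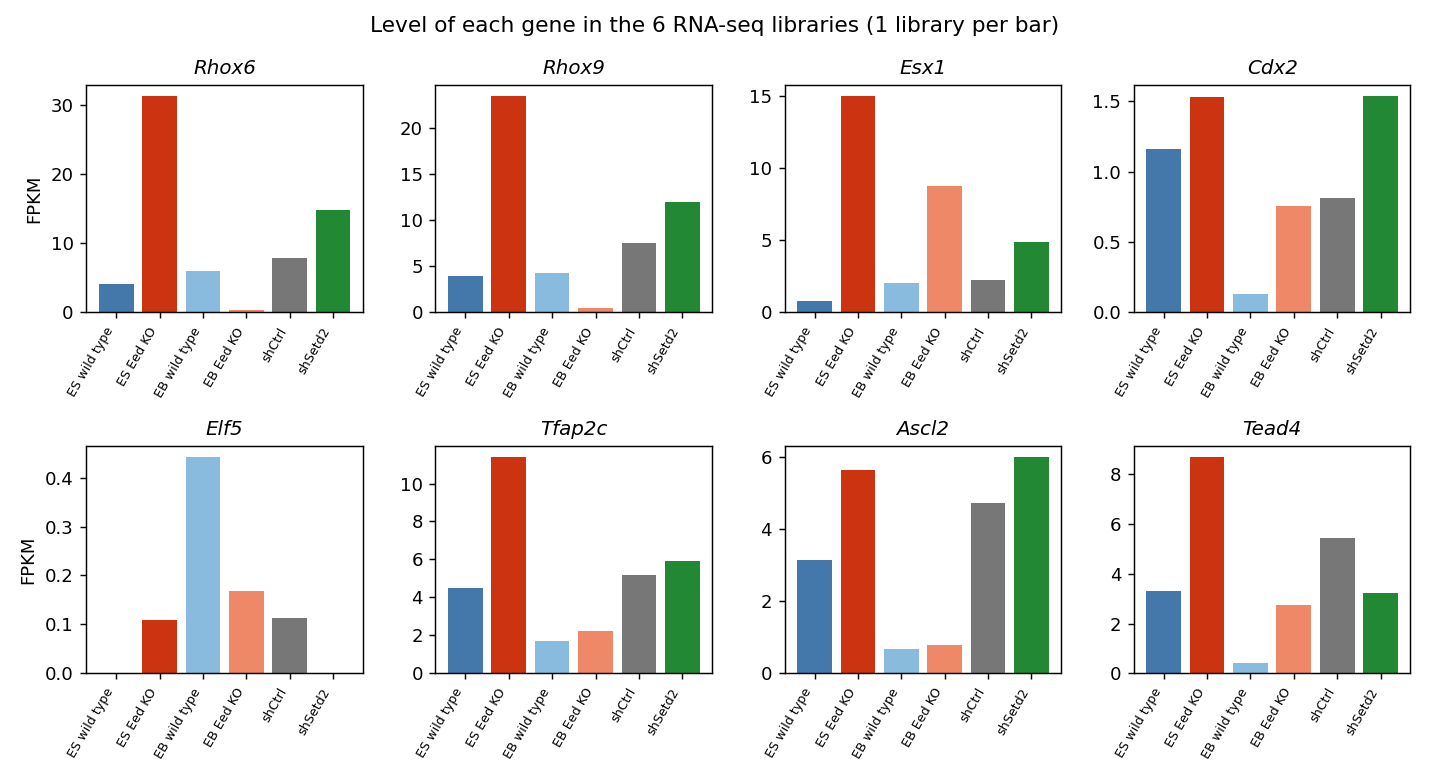
FPKM (vertical axes, from 0, scaled separately for each gene) of the 8 genes in each of the 6 libraries, 1 library per bar. Rhox6 and Rhox9 stand highest in ES Eed KO and lowest in EB Eed KO, and Elf5 stays under 0.5 in every library.

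Rhox6 (NM_008955, mm9 chromosome X, 35180232 to 35183034) encodes a homeobox factor of placenta and germ cells. Its FPKM was 4.14 in ES wild type, 31.3 in ES Eed KO, 6.06 in EB wild type, 0.405 in EB Eed KO, 7.93 in shCtrl and 14.8 in shSetd2. ES Eed KO was thus the highest library and EB Eed KO the lowest, with 77.2 times between them. The remaining 4 libraries lay between 4.14 and 14.8. The control ES libraries, ES wild type and shCtrl, themselves differed by 0.80, with EB wild type between them, so no order among these is read. The Eed difference was 2.65 in ES cells, 43rd from the top among expressed genes, and -2.33 in EBs. Against shCtrl in place of ES wild type the ES difference was 1.85. With the whole span of its locus taken as transcript, the EB Eed KO value stands for at most about 18.6 fragments and the EB wild-type value for about 404.

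Rhox9 (NM_023894, chromosome X, 35252274 to 35254947) is the closest relative of Rhox6 in the cluster. It had 3.91 in ES wild type, 23.4 in ES Eed KO, 4.33 in EB wild type, 0.465 in EB Eed KO, 7.55 in shCtrl and 12.0 in shSetd2. The libraries stood in the same order as for Rhox6. The Eed difference was 2.31 in ES cells, 1.51 when shCtrl was the control, and -1.86 in EBs. The ratio of Rhox6 to Rhox9 lay between 0.872 in EB Eed KO and 1.40 in EB wild type. Reads that match both genes could have been divided between them by the authors' software, so their values may not be independent.

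Over the 6 libraries, each of Rhox6 and Rhox9 was the gene with the pattern most like the other among 11215 genes with an FPKM of at least 5 somewhere. Likeness was the root mean square difference between profiles of log2(FPKM + 1), each centred on its own mean, and it was 0.18 for this couple. The next genes were Cox7a1, a muscle-type subunit of cytochrome c oxidase, at 0.63 from Rhox6 and 0.52 from Rhox9, and the tubulin gene Tuba3b at 0.63 and 0.47. Esx1, on the same chromosome, was far from Rhox6 in this measure, at 1.55.

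The rest of the Rhox cluster was then examined gene by gene. Found by symbol were 28 Rhox genes besides Rhox6 and Rhox9, of which 3 were expressed in the E36 libraries. Rhox5 and Rhox7b were looked up but not found, so they are missing from the cluster as described here. Rhox10 had 1.13 in ES wild type and 9.11 in ES Eed KO, and Rhox13 had 1.73 and 4.998, so both were higher by the size rule, at 2.25 and 1.13. With shCtrl as the control, Rhox10 differed by 2.998 and Rhox13 by 0.65, which did not pass the rule. Rhox1, at the other end of the cluster, had 2.68 and 1.16, a difference of -0.77. With shCtrl as the control the Rhox1 difference was 0.004. In E14 cells Rhox8 was also expressed, at 3.10 in shCtrl and 2.75 in shSetd2, against 0.197 in E36 ES wild type. The Rhox2, Rhox3 and Rhox4 copies lay under 0.4 in all 6 libraries. They are near-identical copies that share reads, so their separate values are uncertain.

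**Figure D2:**
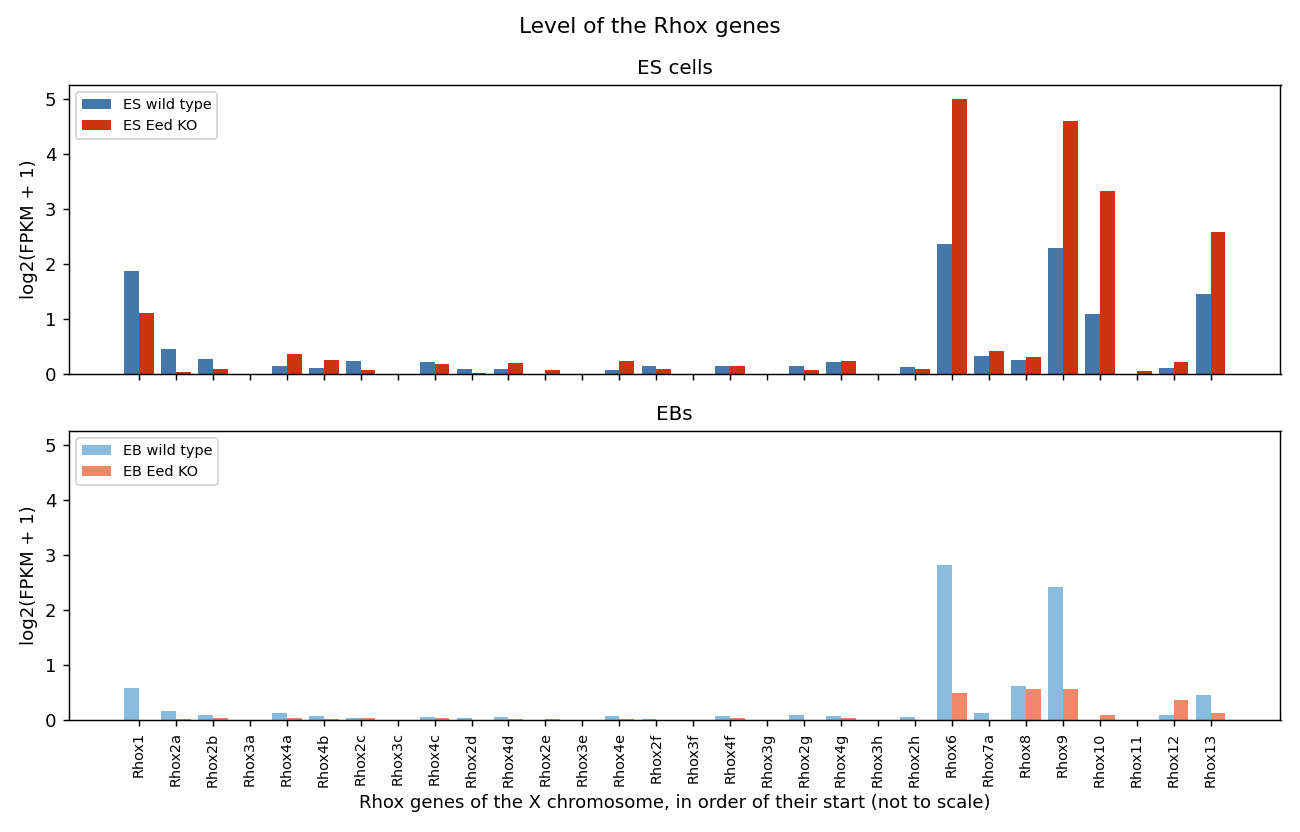
Level as log2(FPKM + 1) of the 30 Rhox genes found by symbol, in order along the X chromosome (not to scale). ES cells are in the upper panel and EBs in the lower panel, with wild type and Eed KO side by side. Rhox5 and Rhox7b were not found. The taller Eed KO bars in ES cells belong to Rhox6, Rhox9, Rhox10 and Rhox13, at one end of the cluster, and in EBs the Rhox6 and Rhox9 bars are taller in wild type.

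In EBs the Rhox genes found were low apart from Rhox6 and Rhox9. The level of Rhox10 was listed at 0 in EB wild type and was 0.0670 in EB Eed KO, and Rhox13 had 0.373 and 0.0820. Summed over the 28 genes other than Rhox6 and Rhox9, FPKM was 7.89 in ES wild type, 17.6 in ES Eed KO, 2.19 in EB wild type and 1.06 in EB Eed KO. Within 500 kb of Rhox6, 10 other genes were expressed in the E36 libraries. In ES cells 3 of them were higher by the size rule and 0 lower, against 2.82% and 3.01% of all genes. The 3 were Rhox9, Rhox10 and Rhox13. The neighbours outside the family, such as Ndufa1 (71.3 and 74.7 FPKM) and Nkap (7.05 and 6.02), were within the rule. In EBs 2 of the 10 were lower and 0 higher, against 9.82% and 7.68% of all genes. The lower were Rhox9 and, from outside the family, the membrane protein gene Tmem255a (7.01 and 2.97). The median of the 10 was -0.49 in EBs beside -0.14 for all genes. Rhox9 is itself 1 of the 8 genes chosen by these values, so these counts and this median are descriptions only. The median difference of X-linked genes with an FPKM of at least 5, relative to all such genes, was 0.03 in ES cells and 0.01 in EBs.

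Esx1 (NM_007957, chromosome X, 133649936 to 133654865) had 0.782 in ES wild type, 15.0 in ES Eed KO, 2.07 in EB wild type, 8.75 in EB Eed KO, 2.23 in shCtrl and 4.91 in shSetd2. Both libraries labelled Eed KO stood above the other 4. The difference was 3.17 in ES cells, 37th from the top, 2.31 when shCtrl was the control, and 1.67 in EBs. In FPKM that is 19.2 times ES wild type, 6.72 times shCtrl and 4.23 times EB wild type. The 2 controls among the ES libraries themselves differed by 0.86 in Esx1, so the size of the ES difference depends on which is used. The genes with the most similar pattern were the deiodinase Dio3, the antiviral factor Zc3hav1 and the triglyceride synthesis enzyme Dgat2, at distances between 0.55 and 0.56. Of 11 expressed neighbours within 500 kb, 0 passed the size rule in ES cells, against 2.82% higher and 3.01% lower over all genes. In EBs 3 of the 11 were lower and 0 higher, against 9.82% and 7.68% of all genes.

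**Figure D3:**
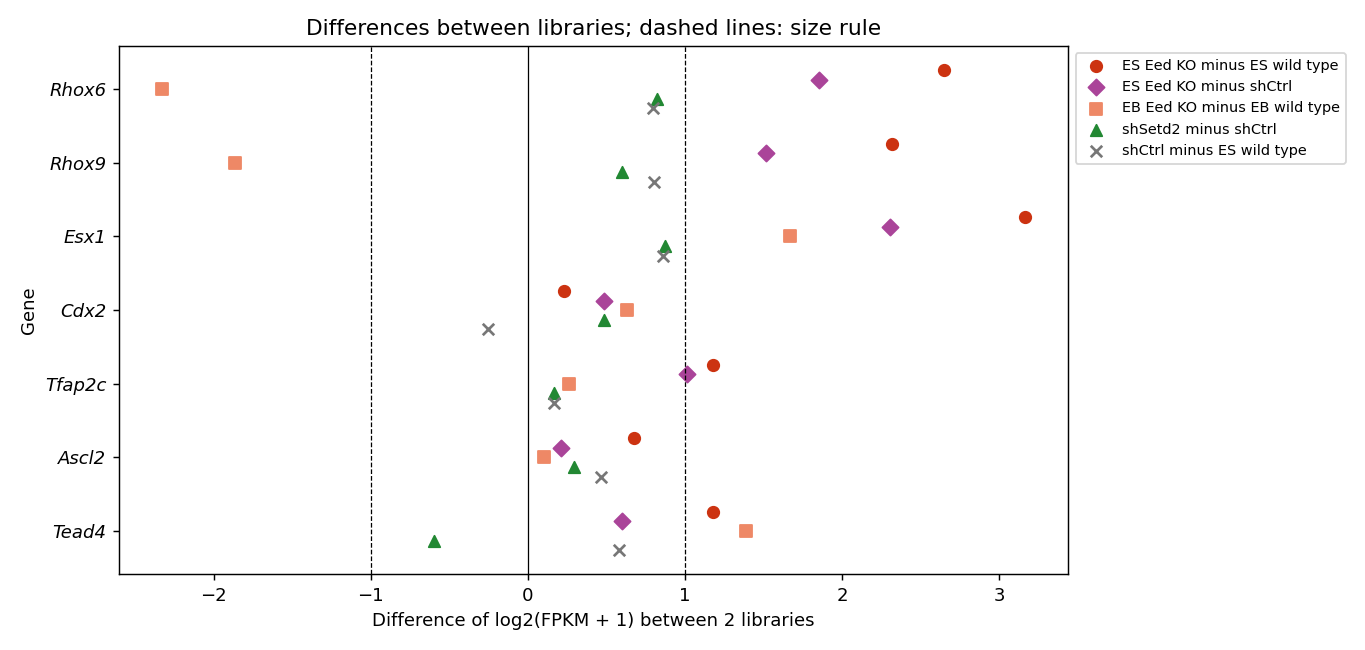
Differences of log2(FPKM + 1) between libraries (horizontal axis) for the 7 genes that were expressed, with 1 marker per comparison and dashed lines at the size rule of 1. The ES Eed KO markers of Rhox6, Rhox9 and Esx1 lie farthest right against either control, and the EB Eed KO markers of Rhox6 and Rhox9 lie on the opposite side.

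The genes of trophectoderm formation showed smaller differences. Tead4 (NM_011567, chromosome 6, 128177161 to 128250831) had 3.30 in ES wild type, 8.72 in ES Eed KO, 0.427 in EB wild type, 2.74 in EB Eed KO, 5.42 in shCtrl and 3.23 in shSetd2. Each Eed KO library stood above its own wild type, by 1.18 in ES cells and 1.39 in EBs. Against shCtrl the ES difference was 0.60 and did not pass the size rule. Chromosome 6 as a whole was shifted in both Eed comparisons, with a median for its genes of 0.57 relative to all genes in ES cells (397 genes) and 0.56 in EBs (497 genes). The upper quartile of its genes was 0.81 in ES cells and 0.97 in EBs. The part of that shift in the Tead4 values was not tested.

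Of the other TEAD genes, Tead1 and Tead2 were more abundant than Tead4 in all 6 libraries. Tead2 had 47.3 FPKM in ES wild type and 47.1 in ES Eed KO, and Tead1 had 17.2 and 19.3. The co-activator Yap1 had 26.7 and 20.2. Of 21 expressed genes on the list of other TEAD and Hippo pathway genes, 0 passed the size rule in ES cells, with a list median of -0.09 beside -0.03 for all genes. In EBs 3 were higher and 2 lower, among them Amot, a junctional Hippo regulator, at 15.5 and 38.9, where the rule called 7.68% of all genes higher and 9.82% lower. The genes with a pattern most like Tead4 were Crip1, a LIM-domain protein, the tetraspanin Cd9 on the same chromosome, and Sfmbt2, an imprinted Polycomb-group gene of the trophoblast, at distances of 0.10, 0.14 and 0.19.

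Cdx2 (NM_007673, chromosome 5, 148112476 to 148118825), the factor that sets trophectoderm apart from the inner cell mass, was low in every library. It had 1.16 in ES wild type, 1.53 in ES Eed KO, 0.134 in EB wild type, 0.756 in EB Eed KO, 0.814 in shCtrl and 1.54 in shSetd2. The ES Eed KO and shSetd2 libraries were level, and EB wild type was the lowest. The Eed difference was 0.23 in ES cells, smaller in size than the 0.25 between control lines, and 0.63 in EBs. In FPKM the EB value was 5.66 times wild type, at levels under 1. Its relative Cdx1 had 0.245 in ES wild type and 1.59 in ES Eed KO, a difference of 1.06. Against shCtrl, where Cdx1 had 0.873, the difference was 0.47 and did not pass the size rule. Cdx4 had 0.734 in ES wild type and 0.245 in ES Eed KO.

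Elf5 (chromosome 2, 103252255 to 103291145), which reinforces Cdx2 and Eomes in trophoblast stem cells, did not count as expressed in any library. Its transcript NM_010125 had 0.1098 in ES Eed KO, 0.443 in EB wild type, 0.168 in EB Eed KO and 0.113 in shCtrl, and lay near 0 in ES wild type and shSetd2. The other transcript, NM_001145813, had 0.124 in ES wild type, 0.257 in ES Eed KO and 0.137 in shSetd2, was near 0 in shCtrl and was listed at 0 in both EB libraries. Both transcripts together came to between 0.113 in shCtrl and 0.443 in EB wild type. Of its expressed relatives, Elf2 had 10.9 in ES wild type and 14.7 in ES Eed KO, and 0 of 4 passed the size rule in either Eed comparison.

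Tfap2c (chromosome 2, 172375093 to 172384121), an AP-2 factor shared by trophoblast and primordial germ cells, has 2 transcripts in the table. NM_009335 had 4.50 in ES wild type, 11.4 in ES Eed KO, 1.68 in EB wild type, 2.22 in EB Eed KO, 5.16 in shCtrl and 5.91 in shSetd2. ES Eed KO stood apart from the other 3 ES libraries, and both EB libraries were below all 4. The difference was 1.18 against ES wild type and 1.01 against shCtrl. The second transcript, NM_001159696, had 5.02 in ES wild type and 5.81 in ES Eed KO. Summed over both, Tfap2c had 9.52 and 17.2 FPKM, a difference of 0.79 that did not pass the size rule. The call for Tfap2c thus holds for 1 transcript as the software divided the reads. NM_009335 made up 47.2% of the sum in ES wild type and 66.3% in ES Eed KO.

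**Figure D4:**
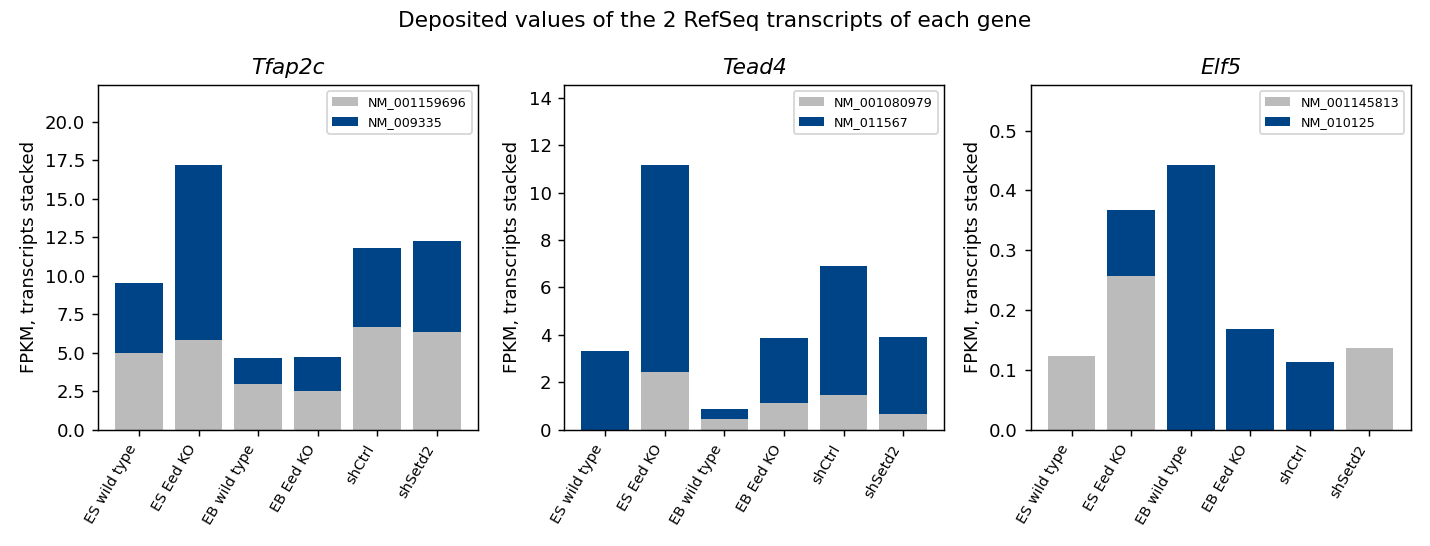
Deposited FPKM of the 2 RefSeq transcripts of Tfap2c, Tead4 and Elf5, stacked, for each of the 6 libraries (vertical axes from 0, scaled separately). In Tfap2c the ES Eed KO bar is taller mainly through NM_009335, and in Tead4 the transcript NM_001080979 is listed at 0 in ES wild type.

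Other AP-2 genes were more abundant than Tfap2c in wild-type EBs. Tfap2b, a neural crest and kidney AP-2 factor, had 9.66 in EB wild type and 0.929 in EB Eed KO, a difference of -2.47, while Tfap2a had 5.12 and 4.03. In ES cells Tfap2a had 0.599 and 2.23, higher by 1.01. With shCtrl as the control the Tfap2a difference was 0.78, within the size rule. The genes most like Tfap2c in pattern were Porcn, which acylates Wnt proteins, the NF-kappa-B regulator Nfkbid and the slow troponin Tnnt1, at distances between 0.13 and 0.14.

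Ascl2 (NM_008554, chromosome 7, 150152727 to 150155169) had 3.13 in ES wild type, 5.61 in ES Eed KO, 0.664 in EB wild type, 0.788 in EB Eed KO, 4.72 in shCtrl and 6.0 in shSetd2. The 4 ES libraries all lay above both EB libraries. The Eed difference was 0.68 in ES cells, 0.21 when shCtrl was the control, and 0.10 in EBs, all within the size rule. The nearest patterns were those of the ubiquitin ligase Herc4, the natriuretic peptide receptor Npr1 and Derl3, a protein of endoplasmic reticulum degradation, at distances between 0.14 and 0.16. No such genes are given for Cdx2 and Elf5, which stayed under an FPKM of 5.

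Other genes of the imprinted region around Ascl2 differed among themselves. Phlda2, a maternally expressed brake on placental growth, had 80.8 in ES wild type and 78.1 in ES Eed KO, and in EBs 2.83 and 26.3, higher by 2.83. Cdkn1c, a cell cycle inhibitor imprinted in the same domain, had 23.7 and 26.7 in ES cells and 94.8 and 172.6 in EBs. Igf2, the paternally expressed growth factor, was higher in both, with 10.8 and 25.9 in ES cells and 127 and 1003 in EBs. Of 12 expressed genes found by symbol on this list, 1 was higher and 2 lower in ES cells, and 3 were higher and 1 lower in EBs. Over all genes the shares higher and lower were 2.82% and 3.01% in ES cells and 7.68% and 9.82% in EBs. H19, also on the list, was not found by symbol and is not in these counts. A transcript without a symbol within 500 kb of Ascl2 had 20.1 and 55.5 in ES cells, higher by 1.42. In EBs it had 909 and 22.7, lower by 5.26.

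**Figure D5:**
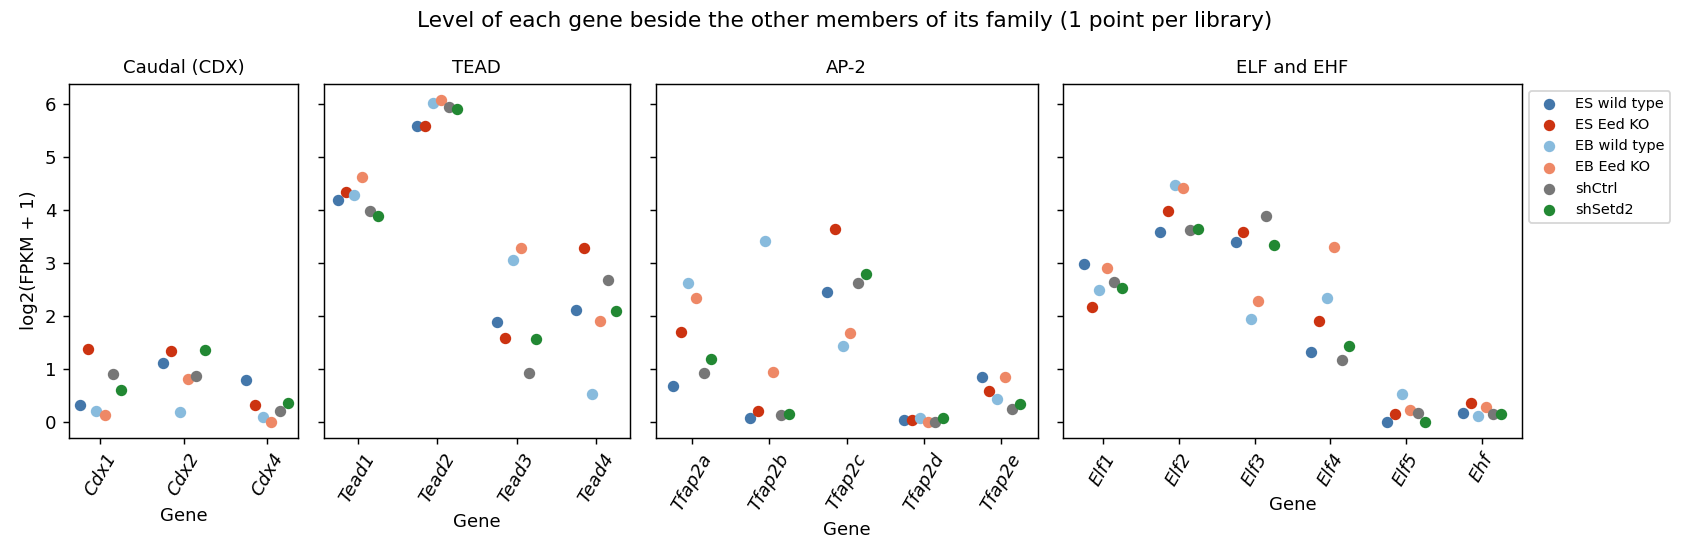
Level as log2(FPKM + 1) of Cdx2, Tead4, Tfap2c and Elf5 beside the other members of their families, with 1 point per library and colour for the library. Tead4 and Elf5 lie under Tead2 and Elf2 in every library, and Tfap2b reaches its highest point in EB wild type.

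Part of the set was lower in EBs than in ES cells. From ES to EB in wild type, 0 of the 7 expressed genes were higher and 3 lower, namely Tead4 (-1.59), Ascl2 (-1.31) and Tfap2c (-1.04). Over all genes the rule called 19.3% higher and 14.2% lower. In Eed KO, 5 were lower and 0 higher, where 19.7% of all genes were higher and 18.5% lower. Rhox6 and Rhox9 had the largest of these, at -4.52 and -4.06, followed by Tfap2c at -1.95, Ascl2 at -1.89 and Tead4 at -1.38. Esx1, at -0.71, and Cdx2, at -0.53, stayed within the rule. Because the EBs are mixed populations, fewer cells of a type and less RNA per cell cannot be told apart in these values.

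The Eed difference in EBs minus that in ES cells was lower by the size rule for 3 genes, Rhox6 (-4.98), Rhox9 (-4.18) and Esx1 (-1.50), and higher for none. Of all genes the rule called 9.13% higher and 10.1% lower. These differences share libraries with those above and add no independent evidence. All genes together had a median of -0.14 in the EB comparison and of -0.11 in this difference, which the sizes above include. With median-of-ratios rescaling the EB comparison called 1442 genes higher and 1147 lower in place of 1135 and 1450, and with upper-quartile rescaling 1428 and 1104. The calls of these 8 genes in the EB comparison held under both rescalings.

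Markers of cell types moved alongside. For scale, the rule called 2.82% of all genes higher and 3.01% lower in ES Eed KO, and 7.68% and 9.82% in EB Eed KO. With shCtrl as the control the ES shares were 5.47% and 3.86%. Of 12 pluripotency genes, 3 were higher and 0 lower in ES Eed KO, where their FPKM summed to 3516 for wild type and 4818 for KO, and in EBs 9 were lower and 0 higher, with sums of 264 and 54.9. With shCtrl as the control, 0 of the 12 passed the rule in ES Eed KO, and the shCtrl sum was 4635. All 11 neuronal genes were lower in EB Eed KO, where their sum was 8.53 against 607 in EB wild type. Of 11 germ line genes, 3 were higher and 1 lower in ES Eed KO (79.0 and 156.5 summed), and 1 was higher and 2 lower in EB Eed KO (14.8 and 10.8). With shCtrl as the control, 1 of 10 was higher and 1 lower. Dppa3 and Stk31, among those higher than in ES wild type, lie on chromosome 6, whose genes had a median shift of 0.57 there. The part of that shift in their values was not tested. On a list of 14 extraembryonic endoderm genes, 8 were expressed, 2 higher in ES Eed KO and 4 in EB Eed KO, with none lower, and 1 was higher and 1 lower in ES Eed KO against shCtrl. The part of these markers in the values of Rhox6, Rhox9 and the other genes was not tested.

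Other trophoblast genes were read from lists of the same lineage. Of 16 other genes of trophoblast stem cells, 15 were expressed. In ES Eed KO 6 of these were higher and 1 lower, against 2.82% and 3.01% of all genes. Their median was 0.75 beside -0.03 for all genes. Among the 6 higher were Hand1, which drives giant cell formation, at 2.26 and 18.4, and Gata2 at 1.74 and 7.34. Eomes, a T-box factor that trophoblast stem cells require, was also higher, at 1.46 and 4.31. Esrrb, at 46.3 and 108, was another and is on the list of pluripotency genes too. In shCtrl, however, Esrrb had 142, above ES Eed KO, so it was not higher against that control. Gata2 lies on chromosome 6, whose genes were shifted by a median of 0.57 in this comparison. The part of that shift in its values was not tested. With shCtrl as the control, 4 of the 15 were higher and 0 lower, against 5.47% and 3.86% of all genes. The median was then 0.10 beside 0.06 for all genes. In EBs 6 were higher and 2 lower, against 7.68% and 9.82% of all genes. The higher included Hand1 (0.782 and 51.2), the placental cadherin Cdh3 (6.29 and 67.1) and Gata3 (3.87 and 18.98), whereas Eomes stayed at 0.260 and 0.459. Hand1, Gata2, Gata3, Bmp4 and Cdh3 are also expressed in mesoderm or ectoderm.

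Of 28 genes of the differentiated placenta, 14 were expressed in the E36 libraries. In ES Eed KO 1 was higher and 1 lower, where 2.82% of all genes were higher and 3.01% lower. But with shCtrl as the control 6 of 13 were higher and 1 lower, against 5.47% and 3.86% of all genes. In EB Eed KO 8 were higher and 2 lower, where 7.68% of all genes were higher and 9.82% lower. Prl3d1 and Prl3b1, the placental lactogens, and the labyrinth protease Ctsq were listed at 0 in all 6 libraries. Tpbpa, the spongiotrophoblast marker, was listed at 0 in all but EB wild type, where it had 0.0951, and Gcm1, the syncytiotrophoblast regulator, lay between 0.274 and 0.613. The number of the 28 genes listed at 0 was 9 in ES wild type, 7 in ES Eed KO, 7 in EB wild type and 10 in EB Eed KO. Among those higher in EB Eed KO were Phlda2, the protease Mmp9 (3.47 and 14.3) and the homeobox gene Dlx3 (1.39 and 5.84).

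Epithelial genes shared by trophectoderm were divided. Of 17, 3 were higher and 3 lower in ES Eed KO, against 2.82% and 3.01% of all genes. The water channel Aqp3, at 7.63 and 39.6, was among the higher, and the keratin gene Krt19, at 62.3 and 15.6, among the lower. Neither held with shCtrl as the control, where Aqp3 had 35.3 and Krt19 had 4.53, so that Krt19 was then higher in ES Eed KO. Against shCtrl 5 of the 17 were higher and 1 lower, where 5.47% of all genes were higher and 3.86% lower. In EB Eed KO 8 were higher and 0 lower, against 7.68% and 9.82% of all genes, with Krt18 at 28.2 and 92.2 and the tight junction gene Cgn at 2.46 and 18.4.

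Cdx2 is also a gene of posterior mesoderm and gut, and Tfap2c of surface ectoderm, so markers of those tissues were read too. Of 11 expressed posterior mesoderm genes, 4 were higher and 1 lower in ES Eed KO, against 2.82% and 3.01% of all genes. All 4 of the higher were Hox genes, among them Hoxa10, Hoxa13 and Hoxd13. T, the streak factor Brachyury, had 1.51 and 1.36. Hoxa10 and Hoxa13 lie on chromosome 6, whose genes were shifted by a median of 0.57 in this comparison. The part of that shift in their values was not tested. With shCtrl as the control, 4 of 7 were higher and 0 lower, against 5.47% and 3.86% of all genes. In EB Eed KO 5 were higher and 3 lower, and T had 0.151 and 0.183. Of 11 intestinal genes only 2 were expressed, and the FPKM of all 11 summed to between 2.61 and 5.68. On the list of surface ectoderm and epidermis, 4 of 12 were higher and 2 lower in EB Eed KO. Grhl3 (2.03 and 10.8) and Trp63 (0.460 and 2.49) were among the higher. The 2 lower were the keratin gene Krt5 (4.96 and 1.54) and Msx1 (20.9 and 9.87). Of all genes the rule called 7.68% higher and 9.82% lower in EB Eed KO.

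Setd2 encodes the enzyme that trimethylates lysine 36 of histone H3. With its knockdown in E14 cells, 0 of the 7 expressed genes passed the size rule. The rule called 0.706% of 12317 genes higher and 1.7% lower (87 and 210 genes, or 136 and 168 with upper-quartile rescaling). Esx1 had the largest difference at 0.87, ahead of Rhox6 at 0.82, Rhox9 at 0.60 and Cdx2 at 0.49, and Tead4 had -0.60. These stand against an all-gene median of -0.13. In FPKM, Esx1 was 2.20 times shCtrl, Rhox6 1.86 times and Rhox9 1.58 times. With upper-quartile or median-of-ratios rescaling, the Esx1 difference was 1.01 and passed the rule. Of the 15 other trophoblast stem cell genes expressed there, 0 were past it, with Esrrb, an orphan receptor shared with ES cells, at 142 and 71.0.

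The order of the 8 genes by level also differed between libraries, and it depends on the transcript used for Tfap2c. With 1 transcript per gene, in ES Eed KO it ran from Rhox6 at 31.3 FPKM through Rhox9 (23.4), Esx1 (15.0), Tfap2c (11.4), Tead4 (8.72), Ascl2 (5.61) and Cdx2 (1.53) to Elf5 (0.1098). In ES wild type, Tfap2c (4.50), Rhox6 (4.14), Rhox9 (3.91), Tead4 (3.30) and Ascl2 (3.13) lay close together, and Esx1 (0.782) was below Cdx2 (1.16). With both its transcripts summed, Tfap2c had 9.52 in ES wild type and was the highest of the 8 there, had 17.2 in ES Eed KO, above Esx1, and had 4.68 in EB wild type, above Rhox9. Summed over the 8, with 1 transcript each, FPKM was 20.9 in ES wild type, 97.1 in ES Eed KO, 15.8 in EB wild type, 16.3 in EB Eed KO, 33.9 in shCtrl and 48.3 in shSetd2. Either way Rhox6 was the highest of the 8 in EB wild type and Esx1 in EB Eed KO.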

How the data were processed

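The values used are FPKM per RefSeq transcript, as the authors deposited them in 1 table of 6 RNA-seq libraries. Per the submitters' processing notes, reads were handled with TopHat and Cuffdiff on mm9. Versions, the annotation release and how libraries were scaled are details not given in the sources used here. Per the labels' protocols the libraries were made with the TruSeq RNA version 2 kit, which does not mark strand, so reads of a gene and an antisense partner cannot be told apart. Cuffdiff divides reads between transcripts, and the positions given are those of its loci, written from 1.

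Accessions were matched to symbols through a RefSeq table of GRCm38.p6 (29300 matched, 551 not). Differences of log2(FPKM + 1) were computed with pandas 2.3.3, for 8 comparisons of single libraries, 1 of them the difference between both Eed differences, and no p-value was computed. The size rule was tested on simulated data. Depth was estimated from 1179 short intronless receptor transcripts, where the most common value between 0.03 and 0.08 FPKM, per kb, was taken as 1 fragment; a depth outside that window would not be found. The genes and 19 further lists were chosen with earlier results of these data known. Named genes are the 8 genes, up to 4 per list and comparison with the largest differences, the 3 most similar patterns, and Eed and Setd2 as checks. Cdx4, Tead1, Tead2, Yap1, Rhox8, the neighbours Ndufa1, Nkap and Tmem255a and the transcript without a symbol near Ascl2 lie outside that rule. So do the placental genes Ctsq, Gcm1, Prl3b1, Prl3d1 and Tpbpa. All of these were chosen after their values were seen. Some list genes are also given in comparisons where they are not among the 4. Some list genes are not reported here by name. Alternatives were pseudocounts of 0.1 and 0.5, 2 rescalings, summed transcripts, no filter, another control and 4 chromosomes left out.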

Additional observations from a re-analysis of the deposited data

Results flagged for a closer look

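Rhox6 and Rhox9 differed in opposite directions in ES cells and in EBs. The single library labelled Eed KO was above its wild type in ES cells and below it in EBs. The values of both genes may not be independent, as reads can match both. The Eed difference in EBs minus that in ES cells was -4.98 for Rhox6 and -4.18 for Rhox9 on the log2(FPKM + 1) scale. The difference between ES cells and EBs was not tested, since each group has 1 library. Of 14772 expressed genes, 82 (0.555%) passed the size rule in opposite directions in this way, and 43 of them were higher in ES cells and lower in EBs.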

How the results depend on the processing

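Over 301 values of single genes under the alternatives, 285 kept their side of the size rule, 4 fell below it and 12 came to pass it. No value past the rule changed sign, and 1 value within it did: the Eed difference in EBs minus that in ES cells for Tead4, from 0.21 to -0.13 with summed transcripts. The 4 that fell below it were Tfap2c with summed transcripts in ES Eed KO (0.79) and in wild-type differentiation (-0.89), Tfap2c in the latter with median-of-ratios rescaling (-0.96), and Tead4 with shCtrl as the control (0.60). In wild-type differentiation 5 genes passed the rule in place of 3 with pseudocounts of 0.1 and 0.5, as Cdx2 and Esx1 joined. With a pseudocount of 0.1, 5 in place of 3 passed in the Eed difference between EBs and ES cells, as Cdx2 and Tead4 joined, and Cdx2 passed in EBs (1.87). In shSetd2, 1 passed in place of 0 with a pseudocount of 0.1 and with either rescaling, and 1 in place of 0 between control lines with pseudocounts of 0.1 and 0.5, Esx1 each time. Without chromosomes 3, 6, 11 and Y, the counts over all genes in ES cells and in EBs stayed within 1.5 times. No paired analysis was possible because each group has 1 library. No interval is given, as the counts behind the FPKM are not part of the table, and values under about 0.05 FPKM stand for about 1 fragment on a transcript of 1 kb.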
